A study of Oryza sativa with 6 samples.

Results

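The genes described are 10 nuclear genes of photosynthetic carbon fixation in rice: Rubisco activase (RCA) and 9 enzyme subunits of the Calvin cycle. They were chosen by locus ID for their role, with no threshold on their values but with earlier results of these data known, and all 10 were found among the 19696 rows of the deposited table and among the 18270 rows tested. The table pairs no locus ID with a name, so the gene names are those given with the list of loci. The libraries came from leaves of rice seedlings 3 weeks old, grown on 1/2MS, a plant culture medium. The wild type was ZH11, a japonica variety, and the other genotype was DGP1-OE1, in which DGP1 is overexpressed, with 3 libraries each. All titles carry the further label Ck, which is not explained, and no other treatment is named. DGP1 is a plant protein known to restrain chlorophyll synthesis in rice glumes, and the comparison asks how its overexpression bears on metabolism. The overexpressor is represented by 1 line, the promoter that drives DGP1 is not given in the sources used here, and the level of DGP1 could not be checked because its locus is not named in the table. Whether the replicates of a genotype came from different plants is not stated, so p-values cover the spread among these libraries alone, which could be technical.

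The Calvin cycle, in the stroma of the chloroplast, fixes carbon dioxide onto ribulose bisphosphate through Rubisco, reduces the product to triose phosphate with ATP and NADPH from the light reactions, and regenerates ribulose bisphosphate. Rubisco activase removes tightly bound sugar phosphates from Rubisco and so keeps it active. PGK (phosphoglycerate kinase) and the GAPDH subunits GAPA and GAPB carry out the reduction. Aldolase, FBPase (fructose bisphosphatase), transketolase, SBPase (sedoheptulose bisphosphatase), RPE (ribulose-phosphate epimerase) and PRK (phosphoribulokinase) regenerate the acceptor. FBPase, SBPase, PRK and the GAPB subunit are under thioredoxin control, which couples the cycle to light.

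All 10 genes had a higher mean FPKM in DGP1-OE1 than in ZH11, by 5.22% for transketolase at the least and 32.8% for RCA at the most, though RCA was the lower with quantile normalization. None of these differences passed the test. FPKM is the number of sequenced fragments relative to the length of the transcript and the size of the library. The limma fit on the log2(FPKM + 1) scale, with Benjamini-Hochberg adjustment over all tested rows, called 0 of the 10 genes higher, against 0.159% of all tested rows (29 genes), and 0 lower, against 0.197% (36 genes). At an unadjusted p under 0.05 the fit also listed 0 of the 10, where it listed 8.8% of all tested rows. The adjusted p ran from 0.642 for FBPase to 0.952 for transketolase. The median difference of the 10 genes was 0.27 on the log2(FPKM + 1) scale, and that of all tested rows was -0.0096. A positive difference of any size was seen in 48.9% of all tested rows. With quantile normalization, 9 of the 10 differences were positive and that of RCA was -0.26. Without DGP1-OE1 replicate 3, 8 of the 10 were positive, and those of PGK and GAPA were -0.14 and -0.13. In leaf RNA, fewer cells of a type and less RNA per cell cannot be told apart.

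**Figure D1:**
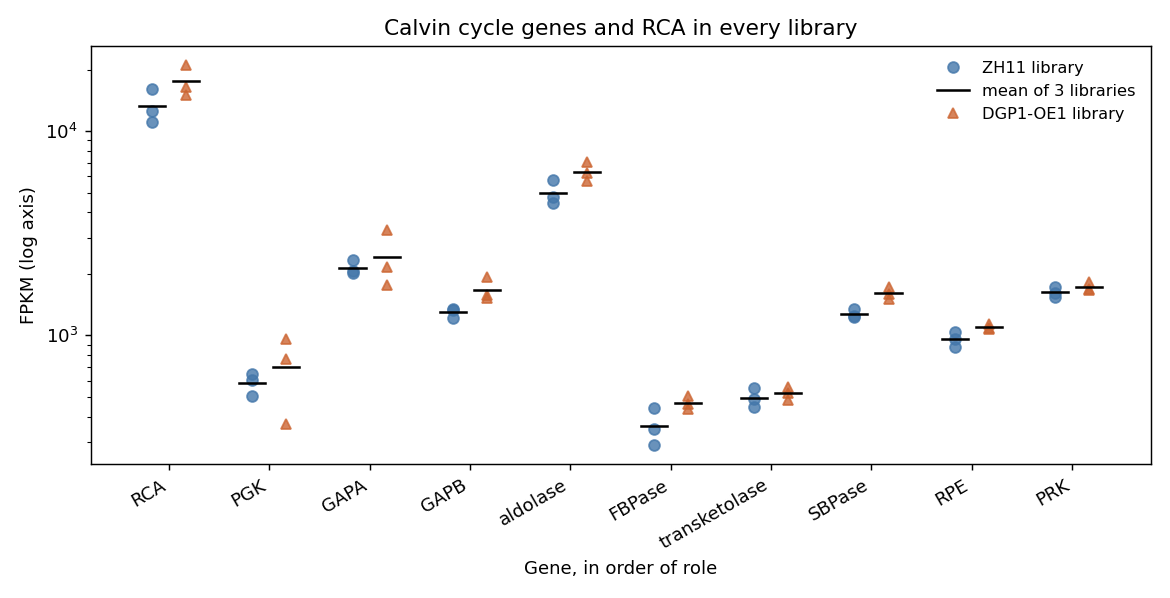
FPKM of the 10 genes (log axis) in each library, with ZH11 libraries as circles, DGP1-OE1 libraries as triangles and the mean of 3 libraries as a bar. The DGP1-OE1 mean lies above the ZH11 mean for every gene on the deposited scale (for RCA not after quantile normalization). On the deposited scale the libraries of both genotypes separate for GAPB, SBPase and RPE, a pattern held by 6.72% of all tested rows. Of the 199 other tested rows with a mean FPKM at least that of FBPase, 19.1% held it. GAPB overlaps with median-of-ratios scaling and RPE with quantile normalization.

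The 10 genes were among the most abundant transcripts of these leaves. Ranked by FPKM within a library, RCA stood between rank 1 and rank 6 of 19696 rows, and the lowest rank of any of them was 288, for FBPase in ZH11 replicate 3. By mean FPKM over the 6 libraries the order ran from RCA through aldolase, GAPA, PRK, GAPB, SBPase, RPE, PGK and transketolase to FBPase. FPKM is scaled to transcript length, which allows a rough comparison of levels between genes. The rice build behind those lengths is not given in the sources used here. RCA was 2.72 times as abundant as aldolase, and aldolase 2.49 times as abundant as GAPA, and both steps held in all 6 libraries without overlap. GAPB and SBPase could not be ordered, since GAPB was the higher of them in 3 of 6 libraries. PGK exceeded transketolase in 4 of 6 libraries, with overlapping values in both genotypes, and PRK exceeded GAPB in 5 of 6. Other markers of leaf cells were not checked, because no further locus of the table is annotated here.

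RCA, at locus Os11g0707000 on chromosome 11, had FPKM values of 12498, 16083 and 11024 in replicates 1, 2 and 3 of ZH11, and of 15089, 21084 and 16429 in those of DGP1-OE1. The groups overlapped through a single pair, because ZH11 replicate 2 lay above DGP1-OE1 replicate 1. The wild-type mean was 13202 ± 2602 FPKM and the overexpressor mean 17534 ± 3147 FPKM (SD, n = 3 each). On the log2 scale RCA differed by 0.41 (limma, SE 0.373, adjusted p = 0.830), and its 95% interval covers folds from 0.753 to 2.35. RCA alone took 1.84% ± 0.360 of all FPKM in ZH11 and 2.37% ± 0.485 in DGP1-OE1 (SD, n = 3 each). Without ZH11 replicate 2 its log2 difference was 0.56, and without DGP1-OE1 replicate 2 it was 0.27.

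PGK, the kinase that phosphorylates phosphoglycerate, was measured from Os05g0496200 on chromosome 5 with FPKM values of 649.8, 507 and 606 in replicates 1, 2 and 3 of ZH11, and of 762, 370.0 and 957 in those of DGP1-OE1. The DGP1-OE1 libraries thus held both the highest and the lowest value, on either side of all ZH11 libraries. The wild-type mean of PGK was 588 ± 73.0 FPKM and the overexpressor mean 696 ± 299 FPKM (SD, n = 3 each), which is a log2 difference of 0.14 (limma, SE 0.319, adjusted p = 0.945). Without DGP1-OE1 replicate 2 the log2 difference of PGK was 0.55 (limma, unadjusted p = 0.0326, adjusted p = 0.518). Without DGP1-OE1 replicate 3 it was -0.14 (limma, adjusted p = 0.956). PGK had the widest spread between replicates of the 10 genes, a pooled SD of 0.522 on the log2(FPKM + 1) scale, where the median of all tested rows was 0.366.

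GAPA, the A subunit of the chloroplast GAPDH that uses NADPH, was measured from Os04g0459500 on chromosome 4. Its FPKM was 2327, 2026 and 2066 in replicates 1, 2 and 3 of ZH11, and 2169, 1764 and 3285 in those of DGP1-OE1. As for PGK, the DGP1-OE1 values enclosed those of ZH11, with replicate 3 high and replicate 2 low. GAPA had a log2 difference of 0.12 (limma, SE 0.282, adjusted p = 0.948). It was 0.32 without DGP1-OE1 replicate 2 and 0.50 with quantile normalization (limma, adjusted p = 0.787 and 0.533). Without DGP1-OE1 replicate 3 the log2 difference of GAPA was -0.13 (limma, adjusted p = 0.951). GAPB, the B subunit of the same enzyme, carries a regulatory tail that GAPA lacks and was measured from Os03g0129300 on chromosome 3. By replicate number its FPKM was 1336, 1343 and 1214 in ZH11, against 1570.2, 1531 and 1929 in DGP1-OE1. Every DGP1-OE1 library lay above every ZH11 library. The wild-type mean of GAPB was 1298 ± 72.7 FPKM and the overexpressor mean 1677 ± 219 FPKM (SD, n = 3 each), which is a log2 difference of 0.36 (limma, SE 0.225, adjusted p = 0.709), with a 95% interval of folds from 0.913 to 1.81.

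The balance of both GAPDH subunits was compared within each library, where scaling between libraries cancels. The GAPB to GAPA ratio of FPKM was 0.574, 0.663 and 0.588 in ZH11 replicates 1, 2 and 3 and 0.724, 0.868 and 0.587 in DGP1-OE1 replicates 1, 2 and 3. GAPA was thus the more abundant subunit in all 6 libraries, and the ratio of DGP1-OE1 replicate 3 fell among those of ZH11. The means were 0.608 ± 0.0478 and 0.726 ± 0.140 (SD, n = 3 each). By an exact permutation test the two-sided p was 0.3, adjusted to 0.6 over 2 ratios, where 0.1 is the smallest p of the design. The FBPase to SBPase ratio averaged 0.282 ± 0.0475 in ZH11 and 0.293 ± 0.0359 in DGP1-OE1 (SD, n = 3 each), with a two-sided p of 0.9 by the same exact test, unchanged by adjustment. The direction of the FBPase to SBPase difference turned without ZH11 replicate 3, to -0.063 log2 units, and without DGP1-OE1 replicate 3, to -0.050.

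**Figure D2:**
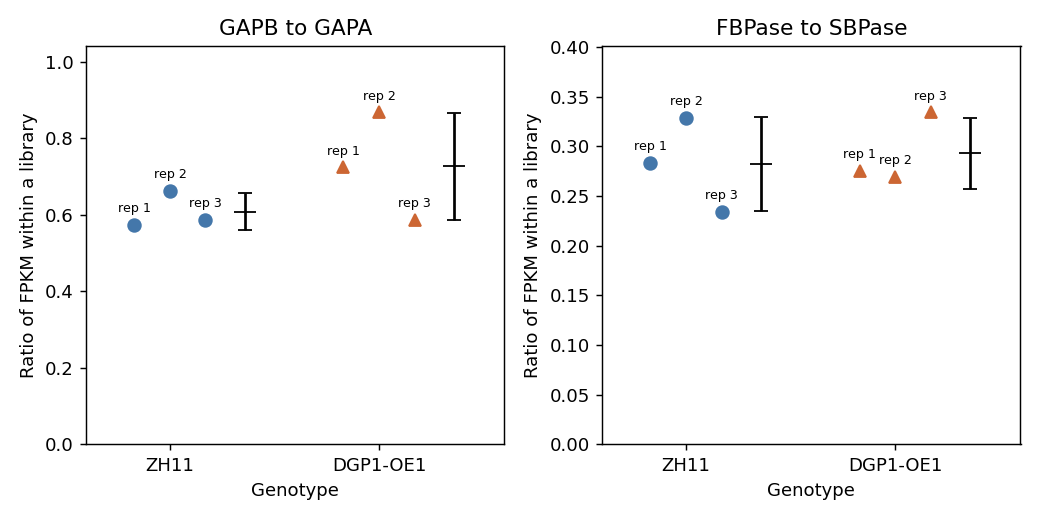
Ratio of FPKM within each library for GAPB to GAPA and for FBPase to SBPase, with each library as a point and the mean ± SD of 3 libraries as a bar. The 3 DGP1-OE1 values of GAPB to GAPA spread from 0.587 to 0.868, wider than the ZH11 values.

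Among the genes of regeneration, aldolase was the most abundant. Aldolase forms the sugar bisphosphates that FBPase and SBPase act on. Measured from Os11g0171300 on chromosome 11, its FPKM was 4755, 5747 and 4433 in replicates 1, 2 and 3 of ZH11, and 6236, 7059 and 5676 in those of DGP1-OE1. ZH11 replicate 2 lay just above DGP1-OE1 replicate 3, and the groups were otherwise apart. Aldolase had a log2 difference of 0.35 (limma, SE 0.292, adjusted p = 0.806), and of 0.70 with quantile normalization (limma, adjusted p = 0.624). That scaling gives each library's top ranks the same values. It set aldolase at 11786 FPKM in DGP1-OE1 replicate 2 (rank 5) and at 3547 FPKM in ZH11 replicate 3 (rank 16). The groups overlapped by that scaling too.

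Of the 2 bisphosphatases, SBPase separated the genotypes and FBPase nearly did. SBPase, an enzyme known only from the Calvin cycle in plants, was measured from Os04g0234600 on chromosome 4. By replicate number the FPKM of SBPase was 1229, 1339 and 1249 in ZH11, against 1586, 1718 and 1515 in DGP1-OE1. The wild-type mean was 1273 ± 58.6 FPKM and the overexpressor mean 1607 ± 103 FPKM (SD, n = 3 each), and all DGP1-OE1 libraries lay above all ZH11 libraries. The log2 difference of SBPase was 0.34 (limma, SE 0.216, adjusted p = 0.728), with a 95% interval of folds from 0.907 to 1.75. FBPase, the chloroplast enzyme that releases phosphate from fructose bisphosphate, was measured from Os03g0267300 on chromosome 3. By replicate number its FPKM was 348, 440.2 and 292 in ZH11, against 437, 463 and 506 in DGP1-OE1. ZH11 replicate 2 exceeded DGP1-OE1 replicate 1 by a few FPKM, and no other pair crossed. FBPase had the lowest adjusted p of the 10 genes, with a log2 difference of 0.40 (limma, SE 0.211, adjusted p = 0.642) and a 95% interval of folds from 0.954 to 1.82. Without ZH11 replicate 2 the log2 difference of FBPase was 0.55 (limma, unadjusted p = 0.0272, adjusted p = 0.379). Without ZH11 replicate 3 it was 0.26 (limma, unadjusted p = 0.297, adjusted p = 0.848).

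RPE, which converts xylulose phosphate to ribulose phosphate, was measured from Os03g0169100 on chromosome 3. Its FPKM was 876, 1038 and 957 in replicates 1, 2 and 3 of ZH11, and 1142, 1079 and 1092 in those of DGP1-OE1. The DGP1-OE1 libraries lay close together and above all ZH11 libraries, the SD being 33.5 FPKM against 81.1 FPKM in ZH11. RPE had a log2 difference of 0.21 (limma, SE 0.207, adjusted p = 0.851). Transketolase, which moves carbon units between sugar phosphates, and PRK, which makes ribulose bisphosphate in the last step, had the smallest differences on the deposited scale, an order that did not hold in every setting. Transketolase, at Os06g0133800 on chromosome 6, had FPKM values of 489, 556 and 444 in ZH11, against 483, 559.7 and 524 in DGP1-OE1, and the groups overlapped. Its log2 difference was 0.077 (limma, SE 0.196, adjusted p = 0.952), with a 95% interval of folds from 0.782 to 1.42. Leaving out ZH11 replicate 3 gave 0.00031 and leaving out ZH11 replicate 2 gave 0.16, where the differences of PGK and GAPA were smaller, at 0.043 and 0.085. PRK, at Os02g0698000 on chromosome 2, had FPKM values of 1614, 1723 and 1534 in ZH11, against 1682, 1676 and 1823 in DGP1-OE1, where ZH11 replicate 2 lay above DGP1-OE1 replicates 1 and 2. The log2 difference of PRK was 0.089 (limma, SE 0.222, adjusted p = 0.952), with a 95% interval of folds from 0.759 to 1.49. With quantile normalization it was 0.36, above those of PGK (0.093), RPE (0.16) and FBPase (0.34).

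**Figure D3:**
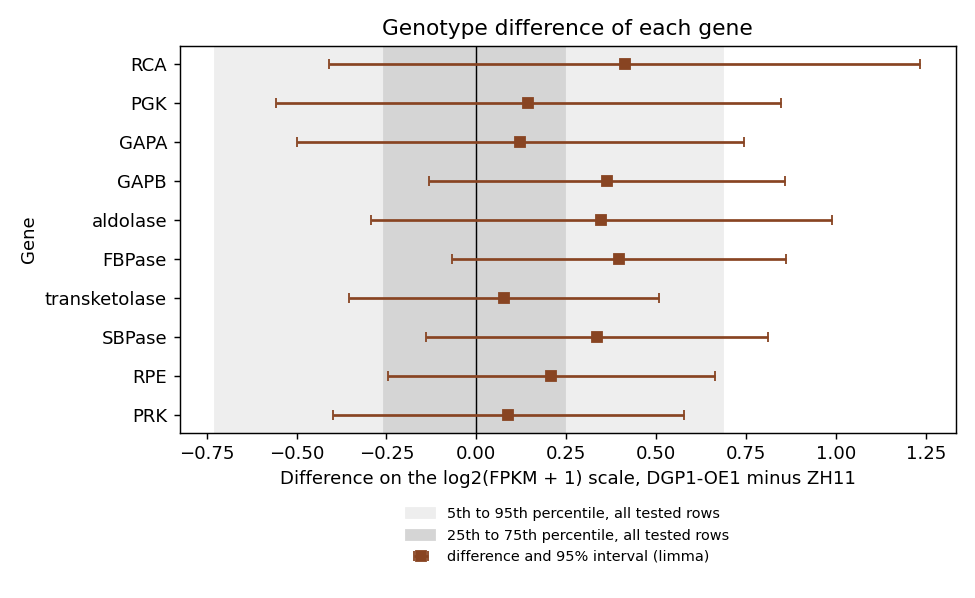
Difference between DGP1-OE1 and ZH11 on the log2(FPKM + 1) scale for each gene (squares) with its 95% interval from limma (lines), over the range of all tested rows (grey). All 10 squares lie to the right of 0 (with quantile normalization RCA stood at -0.26), and all 10 intervals include 0.

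Without overlap between genotypes were 3 of the 10 genes, GAPB, SBPase and RPE, each with all DGP1-OE1 libraries above all ZH11 libraries, a pattern held by 6.72% of all tested rows. The opposite pattern was held by 0 of the 10 and by 7.19% of all tested rows. For GAPB, SBPase and RPE an exact permutation test over libraries gave a two-sided p = 0.1 each, the smallest that 3 against 3 libraries allow. That p follows from the separation itself and adds no support to it. By the same test the p of the other genes ran from 0.2 (RCA, aldolase and FBPase) to 0.8 (PGK and GAPA). With median-of-ratios scaling the count of genes with all DGP1-OE1 libraries above was 5 of 10, against 8.4% of all tested rows. Those 5 were RCA, aldolase, FBPase, SBPase and RPE, without GAPB. With quantile normalization the count was 4 of 10, with 7.91% of all tested rows, and these were GAPA, GAPB, SBPase and PRK, without RPE. Of the 3 genes, SBPase alone separated under each of these scalings. On the deposited scale the count was 7 of 10 without ZH11 replicate 2, with 16.7% of all tested rows. RCA, aldolase, FBPase and PRK overlapped only through that library. Leaving out any other library gave a lower count. It was 3 without ZH11 replicate 1 (8.94% of all tested rows) and 3 without ZH11 replicate 3 (10.9%). Without DGP1-OE1 replicate 1, 2 or 3 it was 5, 4 and 4 (9.94%, 10% and 14.6%). Among the 199 other tested rows with a mean FPKM at least that of FBPase, a comparison added after the values were seen, 115 had a positive difference, the median was 0.080 and 19.1% separated in this direction.

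Most of the 10 genes varied little between replicates, and the test used a wider error than their own. The pooled replicate SD on the log2(FPKM + 1) scale had a median of 0.159 for the 10 genes against 0.366 for all tested rows. Among the 199 other tested rows with a mean FPKM at least that of FBPase, the median was 0.286. PRK and SBPase had the smallest, at 0.0768 and 0.0798. limma moderates each gene's spread towards that of rows of like abundance. For SBPase the moderated SE was 0.216, where its own 6 libraries alone give 0.0652, for PRK 0.222 against 0.0627, and for RPE 0.207 against 0.0750. For PGK the moderated SE was the smaller, at 0.319 against 0.426. Given these moderated SEs, transketolase would have had to differ by 2.13-fold and RCA by 4.22-fold to be called, at the p of the weakest called row.

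Within ZH11 most genes were high in the same library, and within DGP1-OE1 they were not. In ZH11, replicate 2 was the highest library for 8 of the 10 genes, with PGK and GAPA as the exceptions, and replicate 3 was the lowest for 6. In DGP1-OE1, RCA, aldolase, transketolase and SBPase were highest in replicate 2, while PGK, GAPA, GAPB, FBPase and PRK were highest in replicate 3. PGK and GAPA lay 0.80 and 0.40 log2 units below their DGP1-OE1 mean in replicate 2 and 0.57 and 0.50 above it in replicate 3. RCA and aldolase lay 0.28 and 0.16 above their mean in replicate 2. Measured as the root mean square distance from the mean profile of the 10 genes over the 6 libraries, GAPB (0.0795) and PRK (0.0835) lay closest and PGK (0.401) farthest. Among rows outside the list, Os01g0266600 and Os05g0156300 had the most similar profile, at distances of 0.0552 and 0.0589, where the median row lay at 0.386. No name for these loci is given in the sources used here.

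**Figure D4:**
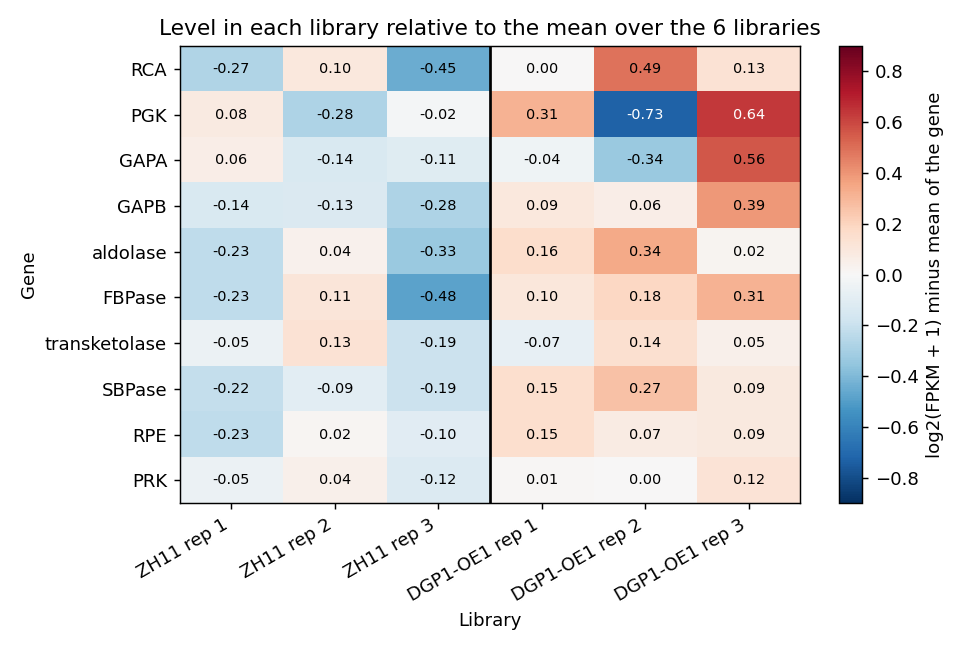
Level of each gene in each library as log2(FPKM + 1) minus the mean of that gene over the 6 libraries, with red above and blue below the mean. ZH11 replicates 1 and 3 are below the mean for most genes, and PGK and GAPA are low in DGP1-OE1 replicate 2 and high in replicate 3.

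Summed over the 10 genes, FPKM was 26121, 30804 and 23820 in ZH11 replicates 1, 2 and 3 and 31157, 37304 and 33737 in DGP1-OE1 replicates 1, 2 and 3. The groups did not overlap in this sum, by a narrow margin between ZH11 replicate 2 and DGP1-OE1 replicate 1. The sum was 26.6% higher in DGP1-OE1, 20.6% higher with RCA left out, and 5.06% higher with quantile normalization. As a share of all FPKM the groups did overlap, at 3.75% ± 0.509 in ZH11 and 4.61% ± 0.520 in DGP1-OE1 (SD, n = 3 each), since ZH11 replicate 2 held 4.23% and DGP1-OE1 replicate 1 held 4.16%. RCA made up 46.3% to 56.5% of the sum in every library. The 6 regeneration genes summed to 9688 ± 1021 FPKM in the wild type and 11753 ± 727 FPKM in the overexpressor (SD, n = 3 each), without overlap on the deposited scale. As a share of all FPKM, and with quantile normalization, their sum did overlap, ZH11 replicate 2 lying above DGP1-OE1 replicate 3. The 3 reduction genes summed to 4025 ± 249 FPKM in the wild type and 4779 ± 1276 FPKM in the overexpressor (SD, n = 3 each), with DGP1-OE1 replicate 2 below all ZH11 libraries. Total FPKM over the listed rows lay between 686327 and 752617 per library, and with no counts deposited beside them the read depth is not known.

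**Figure D5:**
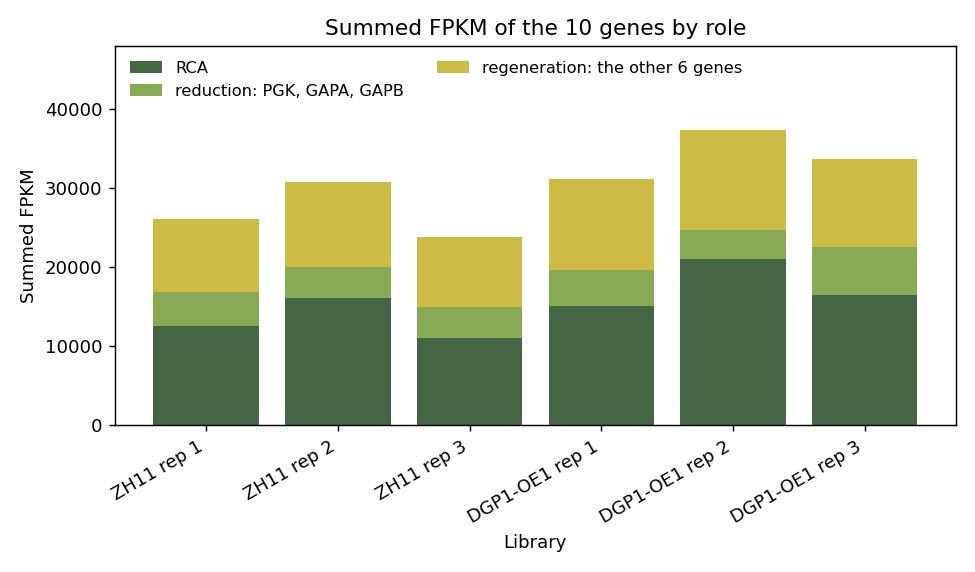
Summed FPKM of RCA, of the 3 reduction genes and of the 6 regeneration genes, stacked for each library. The total ran from 23820 to 30804 in ZH11 and from 31157 to 37304 in DGP1-OE1.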

How the data were processed

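The deposited table gives FPKM made by the authors. Per the submitters' processing notes, which give no roles, HISAT2 2.0, StringTie 1.3.0 and Bowtie 0.12.2 were used; the notes list the mouse build mm8, at odds with the rice loci, and the rice build is not given in the sources used here. Overexpressor columns are headed DGP1-OE with a number and were taken as DGP1-OE1 with that replicate number. At most 3.7% of low genes shared 1 ratio between libraries within 0.02 log2 units, so read depth could not be recovered. Rows with FPKM of at least 1 in at least 3 of 6 libraries were tested on log2(FPKM + 1) with limma 3.58.1 in R 4.3.3 (intensity trend, two-sided, Benjamini-Hochberg, threshold 0.05), after a test on simulated data. Differences are on that scale. Chromosomes were read from the locus IDs. The 10 genes, the tests and the lists were chosen with earlier results of these data known. All 10 genes are named whatever their values, with the 2 loci nearest to their mean profile; those nearest to RCA alone are not printed, since none of these loci has a name here. Lists of further pathway genes and tissue markers were not run, because their loci are not annotated in the sources used here, and no sequences were used.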

Additional observations from a re-analysis of the deposited data

How the results depend on the processing

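No setting called any of the 10 genes. The settings tried were no filter and a limit of 5 FPKM, scaling by totals, by median of ratios and by quantiles, a pseudocount of 0.1, moderation that was robust or without intensity trend, the replicate block, and each library left out. The lowest adjusted p in any of them was 0.379 (limma, FBPase without ZH11 replicate 2). The median log2 difference of 0.27 became 0.35 with quantile normalization and 0.23 to 0.32 when single libraries were left out. The log2 difference of RCA was -0.26 with quantile normalization, which gives each library's top ranks the same values, and RCA ranked 1, 2 and 6 in ZH11 but 4, 2 and 5 in DGP1-OE1; by that scaling the summed FPKM was 5.06% higher instead of 26.6%, and without single libraries 19.7% to 36.4%. Quantile normalization also raised the log2 differences of GAPB to 0.54 (limma, unadjusted p = 0.0291, adjusted p = 0.446) and SBPase to 0.57. The log2 difference of PGK was 0.547 without DGP1-OE1 replicate 2. Without DGP1-OE1 replicate 3 the log2 differences of PGK and GAPA were -0.138 and -0.127. The log2 GAPB to GAPA ratio difference of the means, 0.26, ran from 0.11 to 0.39 without single libraries, and that of FBPase to SBPase, 0.055, from -0.063 to 0.18. Of all tested genes, 29 were higher and 36 lower. The lower count was 21 with the smaller pseudocount and 14 without the trend. Leaving out single libraries gave 16 to 39 higher and 9 to 42 lower. With the replicate number as a block, 130 were higher and 139 lower, and none of the 10 genes was called (lowest adjusted p = 0.451, limma). The labels do not pair equal numbers, so the numbers were not taken as pairs. Deviations of same-numbered libraries correlated at 0.016, 0.38 and 0.14, where 0.38, for replicate 2, was the highest of any pair across genotypes. ZH11 replicate 3 correlated better with DGP1-OE1 replicate 1 (0.21) than with DGP1-OE1 replicate 3. Whether libraries of equal number were handled together was not tested. What causes these shifts was not tested. With depth unknown, no counting error can be given.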
